A study of Homo sapiens with 6 samples.

Results

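The genes described are 8 of the 16199 rows of a count table from human embryonic stem cells, chosen by symbol for their part in DNA methylation. They are the DNA methyltransferases DNMT1, DNMT3A and DNMT3B, the dioxygenases TET1, TET2 and TET3, the maintenance factor UHRF1 and the methyl-CpG binding protein MBD2. All 8 were found, and all 8 entered the test. The cells were of the established line H1, with 3 Dicer genotypes made by CRISPR-Cas9 editing: wild-type, S1344L hemizygous and S1344L homozygous. The protocol writes the mutant genotypes as pm/fs and pm/pm without spelling these out. It does not say how many clones stand behind a genotype, or what the doxycycline that all cells lacked for 10 days controls. Each genotype has 2 libraries, each from 2 confluent dishes of 15 cm, and all cells were irradiated 2 times with 254 nm light at 150 mJ/cm2 before RNA bound to Ago2 was recovered by iCLIP. This method crosslinks a protein to RNA and sequences what stays attached, so a value here is a count of reads in an Ago2 pull-down and not a direct measure of transcript level, of protein or of methylation.

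DNA methylation in mammals sits mainly on the cytosine of CpG dinucleotides. DNMT3A and DNMT3B write new marks, and DNMT1 copies them to the daughter strand after replication, guided by UHRF1, which binds hemimethylated DNA. TET enzymes oxidise the methyl group as a step of its removal, and proteins such as MBD2 bind methylated CpG and recruit repressor complexes. Pluripotent cells are known for high DNMT3B and TET1. A route from microRNAs to this system was described in mouse embryonic stem cells without Dicer, in which loss of a microRNA cluster was linked to higher Rbl2, a repressor of the RB family, and to lower de novo methyltransferases.

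Total counts lay between 38.2 M and 52.9 M per library. The cell type was checked against its markers. All 10 pluripotency markers were counted, with a summed CPM (counts relative to library size, scaled by TMM factors) of 8077 to 8188 in wild-type, 8723 to 9180 in hemizygous and 8382 to 9057 in homozygous libraries. Of the other lineages' markers, 11 of 14 stromal genes were listed (COL3A1, DCN and LUM were not), with sums of 1680 to 1741, 1650 to 1651 and 1552 to 1582 CPM in the same order, and 6 of 10 neural genes, with 470 to 517, 490 to 589 and 428 to 439 CPM. All 6 neural genes were above 0 in hemizygous against wild-type cells, with a median log2 fold change of 0.49. For 3 of them both hemizygous libraries were above both wild-type libraries, against 8.13% of all genes. ZIC1, DCX and FABP7 had an unadjusted p under 0.05 by edgeR, against 0.87% of all genes, with 0 called. In homozygous cells 3 of 6 were above 0 (median 0.10). For these 3 both libraries were above both wild-type ones, and for 3 below, against 14.2% and 13.6% of all genes. ZIC1 and FABP7 had an unadjusted p under 0.05 there by edgeR. Both homozygous libraries were below both hemizygous ones for 5 of 6, against 10.4% of all genes. Of 11 stromal genes, 2 were above 0 in homozygous (median -0.36) and 6 in hemizygous cells (median 0.05). Of 10 pluripotency markers, 9 were above 0 in hemizygous (median 0.15) and 8 in homozygous cells (median 0.14). Both mutant libraries were above both wild-type ones for 3 and 4 of them, against 8.13% and 14.2% of all genes. They were below for 0 and 1, against 9.21% and 13.6%. Of all genes, 50.9% were below 0 in hemizygous and 50.7% in homozygous cells. Only 1 of 10 mesendoderm genes was listed, at no more than 3.07 CPM, and 3 of 10 trophoblast and amnion genes, at 17.4 to 28.1 CPM in sum. In bulk libraries, fewer cells of a type and fewer counts per cell cannot be told apart. DICER1 stood at 169 and 126 CPM in wild-type replicates 1 and 2. It stood at 118 and 96.4 CPM in hemizygous and at 129 and 118 in homozygous libraries. Both hemizygous libraries were below both wild-type ones, as for 9.21% of all genes, while homozygous and wild-type libraries overlapped. In hemizygous cells the log2 fold change was -0.46 (SE 0.19, interval -0.91 to -0.012). Its unadjusted p was 0.0456 and its adjusted p 0.99998 by edgeR. In homozygous cells the log2 fold change was -0.26 (SE 0.19, interval -0.71 to 0.19). These levels do not test a substitution. The part of these marker levels in the values below was not tested. The labels do not state whether replicates were grown apart, so each p-value covers only library-to-library spread, possibly technical.

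None of the 8 genes passed edgeR's quasi-likelihood test for a difference between Dicer genotypes in any of 4 comparisons (each mutant genotype with wild-type, their mean with wild-type, and homozygous with hemizygous). edgeR's adjusted p was 1.00 for each gene in the 3 comparisons with wild-type and 0.999 for each between the mutants. This is also the background, since 0.0% of all 16199 genes were called in each of the 4. At an unadjusted p under 0.05 the members again numbered 0 in each, against 0.87%, 2.69%, 1.94% and 0.765% of all genes, and DESeq2 and limma-voom called 0 members. Over the whole table DESeq2 called 7 genes in hemizygous against wild-type and 10 in each other comparison. The intervals of the differences, given below, show what sizes these data allow. The comparisons with wild-type share its 2 libraries.

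The de novo methyltransferases come first. DNMT3B (chr20:32762385-32809356) had 84307 to 127200 counts, 0.218% to 0.286% of a library. It stood at 2452.5 and 2156.8 CPM in wild-type replicates 1 and 2, at 2959.3 and 2328.2 in hemizygous and at 2214.3 and 2313.2 in homozygous libraries. Hemizygous replicate 1 was the highest library, and the other 5 lay close together. The log2 fold change was 0.20 (SE 0.16, 95% interval -0.18 to 0.58) in hemizygous and -0.03 (SE 0.16, interval -0.41 to 0.36) in homozygous against wild-type cells. The hemizygous value was 0.023 without hemizygous replicate 1 and 0.36 without hemizygous replicate 2. Between the mutant genotypes both homozygous libraries were below both hemizygous ones, with a log2 fold change of -0.22 (SE 0.16, interval -0.61 to 0.16). Libraries separated in this direction for 10.4% of all genes and in either direction for 21.4%, and DNMT3B was the 1 member of 8 that separated. Without hemizygous replicate 1 this value was -0.04.

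DNMT3A (chr2:25227874-25342590), the other de novo enzyme, stood at 149.8 and 169 CPM in wild-type, 165 and 168 in hemizygous and 182 and 167 in homozygous libraries. All 6 lay within a narrow range, and the groups overlapped. edgeR estimated a log2 fold change of 0.06 (SE 0.13, 95% interval -0.25 to 0.37) in hemizygous and 0.13 (SE 0.13, interval -0.18 to 0.44) in homozygous cells. Of the 8 genes it had the smallest standard error, and the interval for homozygous cells spans a fold of 0.881 to 1.36. The ratio of both enzymes within a library does not depend on scaling. There were 6.11 and 7.84 DNMT3A counts per 100 of DNMT3B in wild-type, 5.56 and 7.23 in hemizygous and 8.20 and 7.23 in homozygous libraries, and the groups overlapped. This ratio of counts is not a ratio of molecules, since the counts are reads from an Ago2 pull-down and transcript lengths were not taken into account. In RefSeq DNMT3A overlaps the microRNA gene MIR1301, which has no row in this table, and its part in the count was not tested.

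The maintenance pair followed. DNMT1 (chr19:10133346-10194953) stood at 214 and 210.5 CPM in wild-type, 221 and 203 in hemizygous and 219 and 180.0 in homozygous libraries. Homozygous replicate 2 was the lowest library, and the rest were alike. The log2 fold change was -0.0033 (SE 0.14, 95% interval -0.35 to 0.34) in hemizygous and -0.09 (SE 0.14, interval -0.43 to 0.26) in homozygous cells.

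UHRF1 (chr19:4903080-4962154), which brings DNMT1 to replicated DNA, stood at 32.5 and 25.9 CPM in wild-type, 36.7 and 23.0 in hemizygous and 28.5 and 22.4 in homozygous libraries. In each genotype replicate 1 was the higher library. edgeR estimated a log2 fold change of 0.03 (SE 0.26, 95% interval -0.59 to 0.64) in hemizygous and -0.20 (SE 0.26, interval -0.81 to 0.42) in homozygous cells. For the latter the difference was -0.19 between the replicate 1 libraries and -0.21 between the replicate 2 libraries. Without wild-type replicate 1 the homozygous value was -0.021, and without homozygous replicate 2 it was -0.034. There were 15.2 and 12.3 UHRF1 counts per 100 of DNMT1 in wild-type, 16.6 and 11.3 in hemizygous and 13.0 and 12.4 in homozygous libraries. UHRF1 overlaps ARRDC5 and the microRNA gene MIR4747 in RefSeq. Neither has a row in this table, and their part in the count was not tested.

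TET1 (chr10:68560337-68694487), the TET enzyme known for its high level in pluripotent cells, varied most between libraries of a genotype. It stood at 276 and 182 CPM in wild-type, 332 and 174 in hemizygous and 248 and 152 in homozygous libraries. All 3 replicate 1 libraries were above all 3 replicate 2 libraries, so genotypes overlapped. The log2 fold change was 0.14 (SE 0.38, 95% interval -0.76 to 1.04) in hemizygous, -0.20 (SE 0.38, interval -1.10 to 0.70) in homozygous cells and -0.34 (SE 0.38, interval -1.24 to 0.56) in homozygous against hemizygous cells. Between libraries of the same number, the homozygous library was below wild-type by 0.16 and 0.27 and below hemizygous by 0.42 and 0.20 on the log2 scale. In RefSeq the gene overlaps the pseudogene COX20P1, counted in this table. The hemizygous value depended on a single library, at -0.39 without hemizygous replicate 1 and 0.53 without hemizygous replicate 2.

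TET3 (chr2:73983631-74135498), the TET enzyme known from the oocyte and early embryo, stood at 48.7 and 46.2 CPM in wild-type, 51.9 and 36.2 in hemizygous and 44.1 and 32.9 in homozygous libraries. Both homozygous libraries were below both wild-type libraries, and TET3 was the 1 member of 8 whose libraries separated, against 13.6% of all genes lower and 14.2% higher. edgeR estimated a log2 fold change of -0.30 (SE 0.22, 95% interval -0.83 to 0.22) in homozygous and -0.11 (SE 0.22, interval -0.63 to 0.41) in hemizygous cells. Without homozygous replicate 2, the lowest library, the homozygous value was -0.11. In RefSeq the gene overlaps BOLA3 and the pseudogene FNBP1P1, both counted in this table, so its count is uncertain where the authors' counting could split such reads.

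TET2 (chr4:105145875-105279803), the TET enzyme best known from blood cells, was near the limit of these data. It had 67 and 49 counts in wild-type, 37 and 38 in hemizygous and 59 and 36 in homozygous libraries, or 1.29 and 1.25, 0.965 and 0.721, and 1.2998 and 0.886 CPM. The exact 95% Poisson interval, which covers counting error only, was 51.9 to 85.1 for the highest count and 25.2 to 49.8 for the lowest. Both hemizygous libraries were below both wild-type libraries, for 1 member of 8 lower and 0 higher, against 9.21% and 8.13% of all genes. The log2 fold change was -0.60 (SE 0.34, 95% interval -1.41 to 0.20) in hemizygous and -0.22 (SE 0.33, interval -1.01 to 0.58) in homozygous cells. TET2 overlaps the antisense gene TET2-AS1, and whether the counts used strand is not given in the sources used here.

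MBD2 (chr18:54151606-54224669), the reader of the set, stood at 26.8 and 23.1 CPM in wild-type, 26.4 and 24.2 in hemizygous and 22.4 and 25.1 in homozygous libraries. The groups overlapped throughout. MBD2 overlaps SNORA37 in RefSeq, which has no row in this table, and its part in the count was not tested. edgeR estimated a log2 fold change of 0.02 (SE 0.15, 95% interval -0.33 to 0.38) in hemizygous and -0.07 (SE 0.15, interval -0.43 to 0.29) in homozygous cells.

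**Figure D1:**
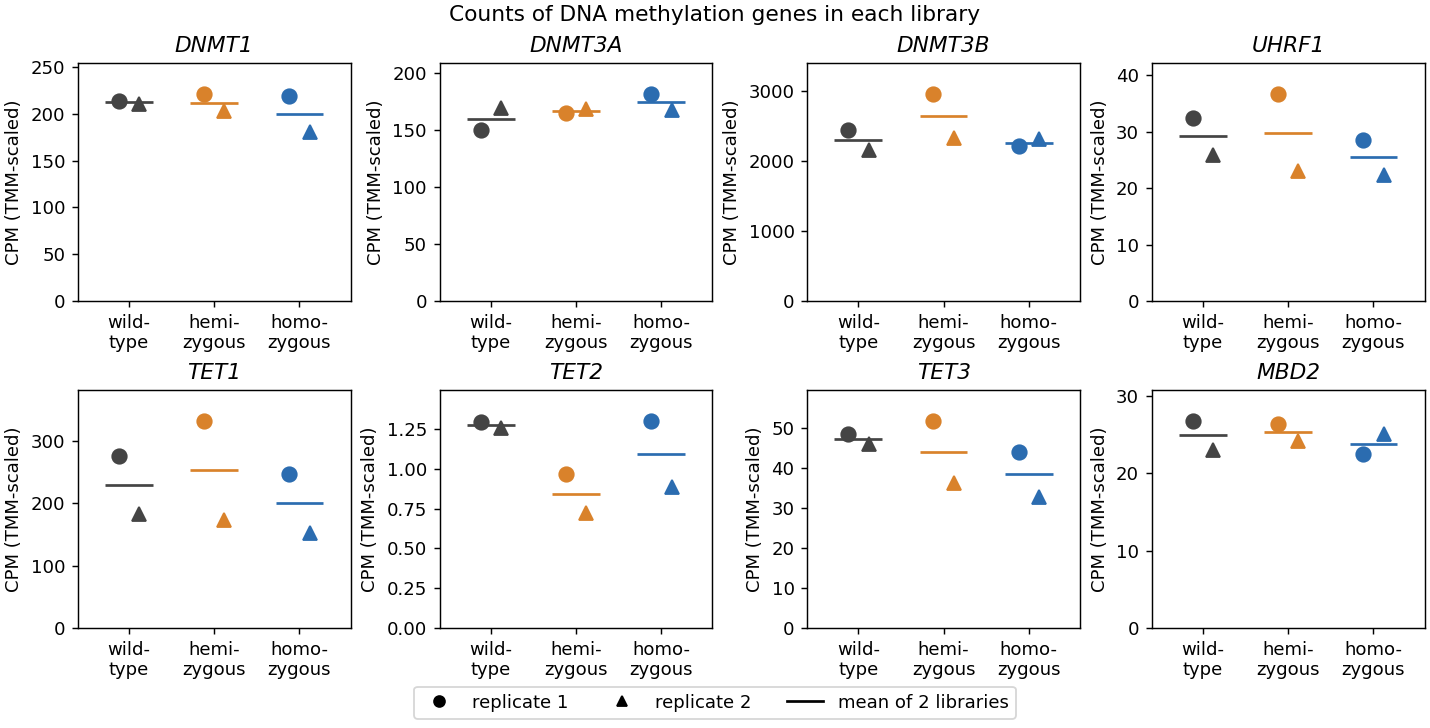
CPM of the 8 genes (vertical axes from 0, each gene on its own scale) in the libraries of the 3 Dicer genotypes; circles are replicate 1, triangles replicate 2 and lines the mean of both. TET1 and UHRF1 are higher in replicate 1 of each genotype, and TET2 lies at no more than 1.2998 CPM in any library.

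Across the set, 7 of 8 estimates were below 0 in homozygous against wild-type cells, all but DNMT3A, where 50.7% of all genes were below 0. This count was 4 of 8 without wild-type replicate 1, also 4 without homozygous replicate 2, and 5 without homozygous replicate 1. In hemizygous cells 3 of 8 were below 0 (DNMT1, TET2 and TET3), against 50.9% of all genes, and the count went from 1 without hemizygous replicate 2 to 6 without hemizygous replicate 1 or wild-type replicate 2. For homozygous against hemizygous cells the number was 6 of 8, against 50.1%, with 3 of 8 without hemizygous replicate 1 and 4 without homozygous replicate 2. For both mutants together it was also 6 of 8, against 51.8%, with 3 of 8 without wild-type replicate 1 or hemizygous replicate 2 and 4 without homozygous replicate 2. In that comparison 0 of 8 genes had all 4 mutant libraries on the same side of both wild-type libraries, against 8.87% of all genes. Some members (TET1, UHRF1, TET3 and DNMT1) vary together between libraries, as given next. These counts are therefore not counts of independent genes, and each rests on single libraries.

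**Figure D2:**
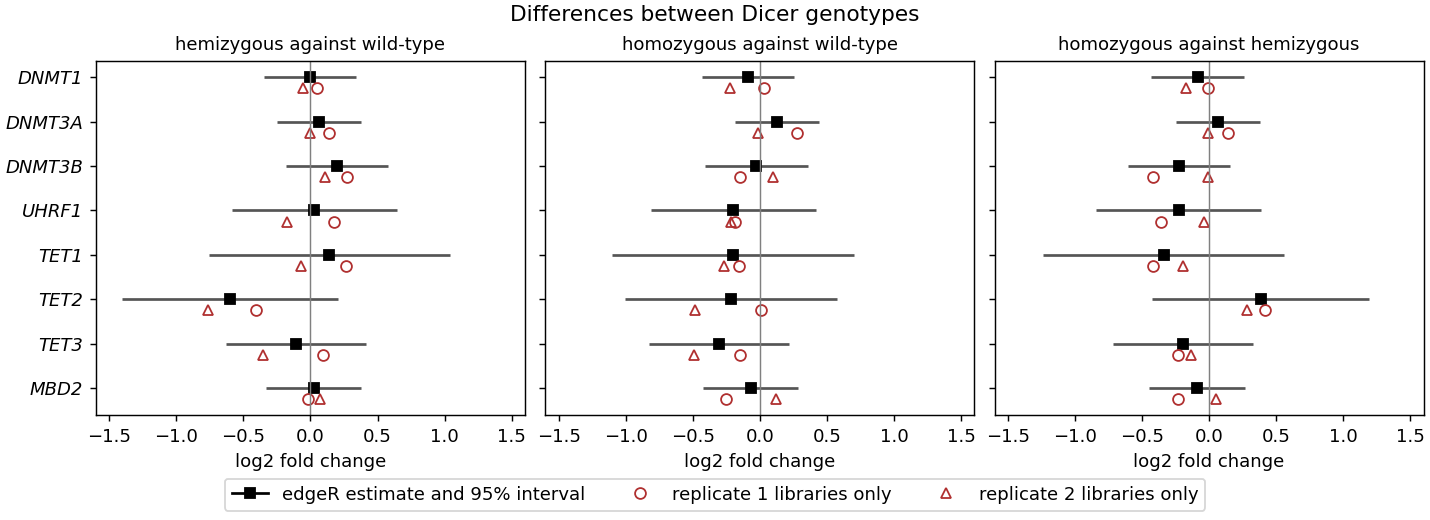
Log2 fold changes of the 8 genes in 3 comparisons (horizontal axes); squares and bars are edgeR's estimate and 95% interval, and open symbols the difference between libraries of the same replicate number. Each interval includes 0, and those of TET1 and TET2 are the widest.

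The difference between replicates was then set beside that between genotypes. TET1 was higher in replicate 1 than in replicate 2 by 0.60 on the log2 CPM scale in wild-type libraries, 0.93 in hemizygous ones and 0.71 in homozygous ones, ratios of 1.51, 1.91 and 1.63. UHRF1 followed with 0.32, 0.67 and 0.35. TET3 had 0.08, 0.52 and 0.42, TET2 0.04, 0.40 and 0.53, and DNMT1 0.02, 0.13 and 0.28. These 5 genes had the higher value in replicate 1 of each genotype, which was so for 29.8% of all genes, and 0 of the 8 had the lower value there in each, against 28.3%. For DNMT1 and TET2 this depends on TMM scaling. As a share of library counts, wild-type replicate 1 was below replicate 2 for DNMT1 (0.0210% against 0.0216%) and TET2 (0.000127% against 0.000128%). A difference of at least 0.5 in each genotype was seen for TET1 alone among the 8, and for 1.69% of all genes. DNMT3A (-0.17, -0.03 and 0.12), DNMT3B (0.19, 0.35 and -0.06) and MBD2 (0.22, 0.12 and -0.16) followed no common direction. The median over all genes was 0.01, -0.01 and 0.01, and the 5th and 95th percentiles were -0.82 and 0.68 in wild-type, -0.85 and 0.75 in hemizygous and -0.66 and 0.52 in homozygous libraries.

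**Figure D3:**
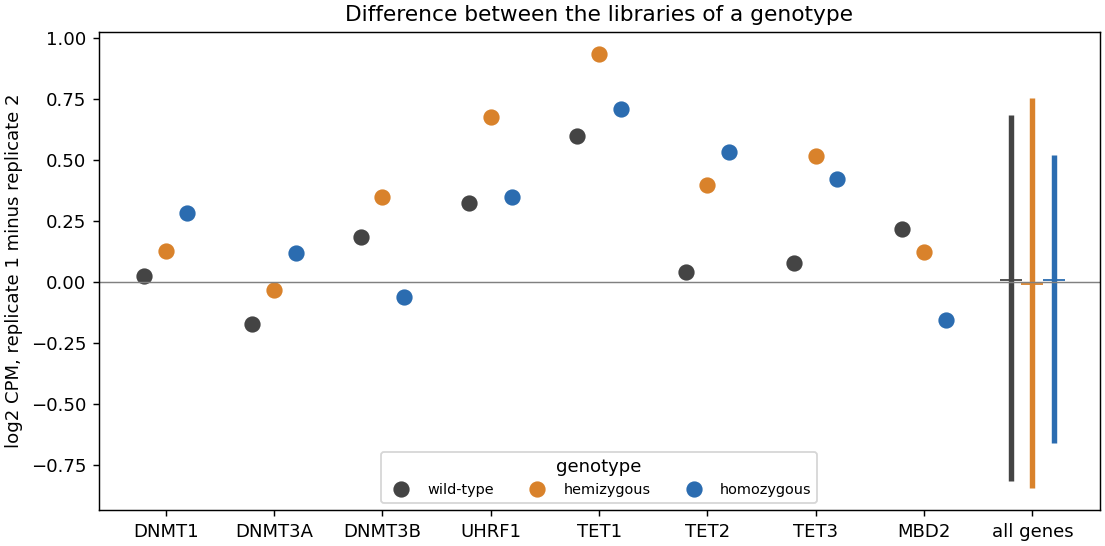
Log2 CPM of replicate 1 minus replicate 2 (vertical axis) for each gene and genotype; bars at the right span the 5th to 95th percentile of all genes, with the median as a tick. The points of TET1 lie between 0.60 and 0.93, while DNMT3A, DNMT3B and MBD2 lie on both sides of 0.

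The same ranking of libraries appeared in the table as a whole. The first principal component of log2 CPM over all genes held 59.1% of the variance and ordered the libraries from hemizygous replicate 1 (-39.8) and wild-type replicate 1 (-34.5) over homozygous replicate 1 (3.15) to wild-type replicate 2 (20.6), hemizygous replicate 2 (22.0) and homozygous replicate 2 (28.5). TET1 and UHRF1, 2 of the 8, were lower at every step along this order, as were 4.1% of all genes, and 0 of the 8 were higher at every step, against 2.31%, a pattern noticed after the values were seen. As a description over 6 libraries, Pearson's r with the component was -0.95 for TET1 and -0.96 for UHRF1, and lay between -0.81 and 0.55 for the other 6. The median absolute r over all genes, which the component was built from, was 0.742. Library totals in the same order were 39.7, 52.9, 46.2, 38.2, 51.6 and 39.6 M, which follow no such order. The TMM factors in that order were 0.966, 0.980, 0.983, 1.024, 1.021 and 1.027. They were below 1 in each replicate 1 library and above 1 in each replicate 2 library. The part of library composition in this order was not tested.

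Over the same 6 libraries, which share their depth and replicate structure, TET1 and UHRF1 had an r of 0.98 with each other, TET3 an r of 0.91 with UHRF1 and 0.87 with TET1, and DNMT1 an r of 0.89 with TET3 and 0.82 with TET1. DNMT3A had an r of -0.39 with DNMT3B and -0.85 with MBD2. Among 10031 genes with a mean of at least 10 CPM, those most like TET1 were AFDN, TAOK1 and PRKAR2A, with r of 0.998 each, and among those most like UHRF1 were MTOR and CDK14, with r of 0.997 each. The nearest genes to DNMT3B were GDA, INPP5F and FBXW7 (r of 0.987, 0.987 and 0.983), to DNMT1 PCDHGA11, PDSS2 and GDI2 (0.992, 0.990 and 0.989), and to DNMT3A ZNF646, SNX27 and DHX38 (0.986, 0.981 and 0.977). SNAP47, NOP14 and NDST1 were nearest to TET3 (0.996, 0.993 and 0.991), MAD2L1BP, E2F4 and TLCD3A to TET2 (0.988, 0.958 and 0.949), and PRKAG2, LARP1B and STMP1 to MBD2 (0.994, 0.990 and 0.986).

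The promoters of the 4 genes with the highest mutual r are shown because their values varied together. Each is the 250 bases before the most upstream start that RefSeq (GRCh38.p14) lists in the promoter table used here, read in the direction of the gene, with CpG dinucleotides in capitals.
TET1, chr10:68560087-68560336, plus strand: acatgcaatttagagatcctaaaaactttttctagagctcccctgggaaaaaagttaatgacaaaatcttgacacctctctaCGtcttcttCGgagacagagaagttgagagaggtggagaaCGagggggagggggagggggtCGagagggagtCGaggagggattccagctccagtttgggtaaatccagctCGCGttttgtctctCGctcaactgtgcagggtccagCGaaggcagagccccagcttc
UHRF1, chr19:4909251-4909500, plus strand: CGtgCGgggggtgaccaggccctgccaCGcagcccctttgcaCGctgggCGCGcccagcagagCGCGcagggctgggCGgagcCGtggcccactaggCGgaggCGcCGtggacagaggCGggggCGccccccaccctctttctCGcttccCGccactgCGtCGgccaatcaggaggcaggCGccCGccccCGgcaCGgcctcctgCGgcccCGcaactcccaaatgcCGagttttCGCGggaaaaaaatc
TET3, chr2:73984660-73984909, plus strand: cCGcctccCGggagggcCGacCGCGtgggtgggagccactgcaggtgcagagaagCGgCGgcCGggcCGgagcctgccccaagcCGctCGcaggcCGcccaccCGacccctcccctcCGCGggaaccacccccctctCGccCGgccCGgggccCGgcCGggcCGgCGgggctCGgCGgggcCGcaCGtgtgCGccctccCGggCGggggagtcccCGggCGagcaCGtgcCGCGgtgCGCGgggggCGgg
DNMT1, chr19:10194954-10195203, minus strand: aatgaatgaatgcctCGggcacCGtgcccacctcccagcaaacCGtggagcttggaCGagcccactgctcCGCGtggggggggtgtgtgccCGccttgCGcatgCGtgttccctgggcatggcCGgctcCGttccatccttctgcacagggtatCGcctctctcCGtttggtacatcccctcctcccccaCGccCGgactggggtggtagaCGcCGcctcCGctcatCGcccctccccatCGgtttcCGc

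CpG dinucleotides numbered 9 for TET1, 28 for UHRF1, 37 for TET3 and 21 for DNMT1. The median over 27305 genes, 1 window each, was 10, with an interquartile range of 3 to 23. TET1 and DNMT1 lay within that range, and UHRF1 and TET3 above it. The UHRF1 and TET3 windows lie within the RefSeq span of their gene. The windows were searched on both strands for the letters TTTGGCGC, TTTCCCGC, TTTGCCGC and TTTCGCGC, forms of the site of E2F factors, which drive genes of the S phase. UHRF1 held 1 match, GCGGGAAA from base 237 of the window, the reverse complement of TTTCCCGC, and a further UHRF1 window 1 match of TTTCGCGC from base 91. TET1, TET3 and DNMT1 held none of these letters. Of all 27305 windows, 2.78% held at least 1. This share is for 1 window per gene and does not cover the match in the further UHRF1 window, since more windows give more places to match. A match of letters is a description and not a binding site.

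The genes between microRNAs and the DNMT3 genes in the described mouse route were looked at next. The microRNAs named in that route have human relatives in the miR-302 and miR-371 to miR-373 clusters, and the miR-17 family has a closely similar seed, shown here with the miR-29 family, which is described as targeting DNMT3A, DNMT3B and TET transcripts directly. Mature sequences are from RefSeq (GRCh38.p14), with the seed, bases 2 to 8, in capitals.
miR-302a-3p: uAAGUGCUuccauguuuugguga
miR-302b-3p: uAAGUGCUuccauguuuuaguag
miR-372-3p: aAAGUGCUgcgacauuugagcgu
miR-373-3p: gAAGUGCUucgauuuuggggugu
miR-17-5p: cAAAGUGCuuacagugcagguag
miR-20a-5p: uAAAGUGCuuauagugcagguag
miR-29a-3p: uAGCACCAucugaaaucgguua
miR-29b-3p: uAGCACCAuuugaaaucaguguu
miR-29c-3p: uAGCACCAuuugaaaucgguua

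The miR-302, miR-372 and miR-373 guides share the seed AAGUGCU, miR-17 and miR-20a share AAAGUGC, the same run shifted by a base, and the miR-29 guides share AGCACCA. The levels of these microRNAs were not analysed here. RBL2, the RB family repressor of the route, stood at 75.9 and 73.8 CPM in wild-type, 66.4 and 74.2 in hemizygous and 70.5 and 80.9 in homozygous libraries. The groups overlapped, with log2 fold changes of -0.09 (SE 0.14, 95% interval -0.42 to 0.24) and 0.02 (SE 0.14, interval -0.31 to 0.34). RBL1, a close relative, stood at 16.8 and 13.9, 17.1 and 13.4, and 17.03 and 15.0 CPM, with -0.01 (SE 0.19) and 0.06 (SE 0.19). AGO2, the protein pulled down, stood at 218 and 222, 277 and 231, and 268 and 199 CPM. Its log2 fold changes were 0.21 (SE 0.18, interval -0.22 to 0.64) and 0.08 (SE 0.18, interval -0.35 to 0.51). Both hemizygous libraries were above both wild-type ones, as for 8.13% of all genes, while homozygous and wild-type libraries overlapped.

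Of 14 genes of the RB and E2F list, 13 were listed, and edgeR called 0 in any comparison. In both mutant comparisons 4 were above and 9 below 0, with a median log2 fold change of -0.05 in hemizygous and -0.07 in homozygous cells, where the median of all genes was -0.0026 and -0.0034. LATS2, a kinase of the Hippo pathway and a described miR-302 and miR-372 target, had the smallest p above 0 in both, with 0.14 (SE 0.17) and 0.23 (SE 0.17). Below 0 these were E2F4 in hemizygous cells (-0.14, SE 0.12) and CDKN1A, an inhibitor of cyclin-dependent kinases, in homozygous cells (-0.99, SE 0.45). CDKN1A stood at 112 and 44.6 CPM in wild-type, 75.7 and 45.0 in hemizygous and 32.8 and 46.2 in homozygous libraries, so the groups overlapped and wild-type replicate 1 was the highest library.

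Of 20 cofactors and maintenance partners of the methyltransferases, 17 were listed. DNMT3L, the catalytically inactive partner of the DNMT3 enzymes, was not, and neither were ZFP57 and EHMT2. edgeR called 0 in any comparison. In hemizygous cells 11 were above 0 and 6 below (median 0.02), and in homozygous cells 8 and 9 (median -0.03). TRDMT1, an RNA methyltransferase of the DNMT family, had 0.17 (SE 0.20) and 0.15 (SE 0.20), and LIG1, a DNA ligase of replication that is linked to UHRF1, -0.17 (SE 0.12) in hemizygous cells. PCLAF, a PCNA partner that helps to recruit DNMT1, stood at 5.09 and 4.55 CPM in wild-type, 5.66 and 4.69 in hemizygous and 3.00 and 3.35 in homozygous libraries. Both homozygous libraries were below the other 4. Of all genes, 13.6% had both homozygous libraries below wild-type and 10.4% below hemizygous ones. The log2 fold change against wild-type was -0.60 (SE 0.23, unadjusted p = 0.0371, adjusted p = 1.00 by edgeR).

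The demethylation and base excision list had all 20 genes, with 6 above and 14 below 0 in hemizygous (median -0.04) and 8 and 12 in homozygous cells (median -0.04), and 0 called. CXXC4, a CXXC domain protein linked to TET2, had a wild-type level of 1.88 ± 0.0479 CPM (SD, n = 2), a hemizygous level of 1.26 ± 0.140 and a homozygous level of 1.27 ± 0.0172. All 4 mutant libraries were below both wild-type libraries, and edgeR estimated -0.59 (SE 0.27) for hemizygous and -0.57 (SE 0.27) for homozygous cells on the log2 scale, at adjusted p of 1.00. SALL4, a zinc finger protein of pluripotent cells described as a reader of oxidised methylcytosine, was above both wild-type libraries in all 4 mutant libraries, with a wild-type level of 234 ± 0.681 CPM, a hemizygous level of 259 ± 2.93 and a homozygous level of 262 ± 11.8, with 0.15 (SE 0.12) and 0.16 (SE 0.12). Such separation of all 4 was seen for 4.58% of all genes below and 4.29% above wild-type.

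Of 15 further readers, 14 were listed, with medians of -0.02 in hemizygous (4 above, 10 below 0) and 0.01 in homozygous cells (8 above, 6 below) and 0 called. MBD3, a relative of MBD2 that binds methylated DNA poorly, had a wild-type level of 44.7 ± 7.97 CPM (SD, n = 2), a hemizygous level of 41.7 ± 2.20 and a homozygous level of 50.0 ± 0.729, with -0.10 (SE 0.16) and 0.16 (SE 0.16). MBD5 had 0.09 (SE 0.16) in hemizygous cells, and ZBTB33, or Kaiso, which binds methylated CpG through zinc fingers, -0.28 (SE 0.13) in homozygous cells. All 12 subunits of NuRD, the nucleosome remodelling and deacetylase complex that MBD2 or MBD3 joins, were listed, with 6 above and 6 below 0 in hemizygous and 4 and 8 in homozygous cells, medians of -0.0039 and -0.02, and 0 called. CDK2AP1 had 0.06 (SE 0.14) in hemizygous and MTA3 0.21 (SE 0.16) in homozygous cells. GATAD2B had -0.75 (SE 0.51) and -0.90 (SE 0.51), with a wild-type level of 2.41 ± 1.64 CPM.

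Germline genes that are described as silenced by promoter methylation were read as a group on which methylation is known to act. Of 25 such genes 8 were listed, and a row with few counts was not in the table, so a gene can be present through the libraries in which it was high. DAZL, an RNA-binding protein of germ cells, stood at 3.10 and 2.79 CPM in wild-type, 4.07 and 5.81 in hemizygous and 4.56 and 6.79 in homozygous libraries. All 4 mutant libraries were above both wild-type libraries, as for 4.29% of all genes. The log2 fold change was 0.75 (SE 0.30, unadjusted p = 0.0449) in hemizygous and 0.94 (SE 0.30, unadjusted p = 0.0181) in homozygous cells. edgeR's adjusted p was 1.00 for both. DPEP3, a testis dipeptidase named after its values were seen, stood at 18.9 and 23.9, 19.8 and 26.5, and 31.2 and 31.4 CPM, with 0.55 (SE 0.19, unadjusted p = 0.0267, adjusted p = 1.00 by edgeR) in homozygous cells. MAEL, a piRNA pathway protein, stood at 1.66 and 2.12, 1.36 and 1.92, and 2.51 and 3.00 CPM. Both homozygous libraries were above the other 4. Of all genes, 14.2% had both homozygous libraries above both wild-type ones. Homozygous and hemizygous libraries separated in either direction for 21.4%. MAEL had -0.20 (SE 0.31) in hemizygous and 0.55 (SE 0.30) in homozygous against wild-type cells. Its value was 0.75 (SE 0.30, unadjusted p = 0.0462, adjusted p = 0.999 by edgeR) in homozygous against hemizygous cells. TEX14, a protein of germ cell bridges, had -0.59 (SE 0.53) in homozygous cells, with 4.49 and 1.59 CPM in the wild-type libraries. Of the 8 listed genes, 5 were above 0 in hemizygous and 6 in homozygous cells, and 0 were called. No methylation was measured here, and the part of the 8 enzymes in these values was not tested.

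**Figure D4:**
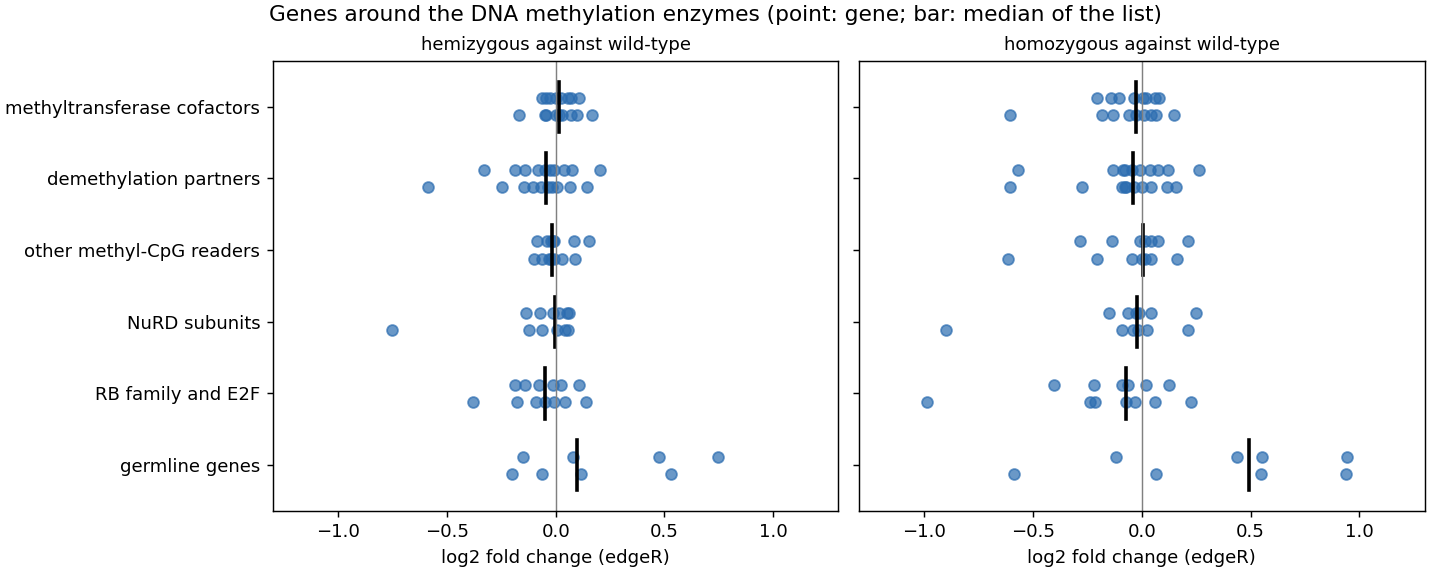
Log2 fold changes (horizontal axes, edgeR) of the genes of 6 lists in hemizygous and homozygous against wild-type cells; each point is a gene and each bar the median of its list. Medians of the first 5 lists lie between -0.07 and 0.02, and that of the 8 listed germline genes at 0.10 and 0.49, with no gene called.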

How the data were processed

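Reads were counted in 6 Ago2 iCLIP libraries of H1 cells, 2 for each of 3 Dicer genotypes. The authors' deposited table holds whole-number counts per gene with no normalization, and its columns were tied to samples by their descriptions, with 0 left unused. Per the submitters' processing notes the build was hg38. Not given in the sources used here are the aligner, counter, annotation, strand setting and handling of molecular identifiers. The lowest row total was 132. IgG pull-downs were not analysed here.

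The 16199 rows all passed filterByExpr. edgeR 4.0.16 (R 4.3.3) fitted a mean for each genotype over the 6 libraries, after TMM scaling and without a replicate block, and its quasi-likelihood F test gave p-values, adjusted over every row by Benjamini-Hochberg, with a threshold of 0.05. The standard error is the estimate divided by the root of F, and the 95% interval uses the degrees of freedom of the fit. Log2 CPM used a prior count of 2. The pipeline was tested on simulated counts with 200 genes changed, once for hemizygous and once for homozygous against wild-type. Of genes changed by a log2 of 1, 42% and 40% were called, and of those changed by 2, 89% and 88%. Every gene was drawn on its own, without the differences between libraries that many genes share in the real counts. The rates in the real counts can therefore differ. Among unchanged genes 17 and 14 were called.

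The members and the 6 gene lists were chosen with earlier results of these data known. Named were all members, RBL2, RBL1, DNMT3L, DICER1 and AGO2, and from each list the gene with the smallest p in each direction in both mutant comparisons with wild-type. Likeness was Pearson's r of log2 CPM. Other settings tried were scaling by RLE, by upper quartile or by library size alone, DESeq2 1.42.0, limma-voom (limma 3.58.1), no filter or one of at least 20 counts in 2 libraries, a fit of only the groups compared, a replicate block, and leaving out every library in turn.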

Additional observations from a re-analysis of the deposited data

How the results depend on the processing

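The 8 genes were called by none of these alternatives in any of the 4 comparisons, and the lowest adjusted p was 0.402 (TET3, homozygous against wild-type, replicate block). Over scaling, filter, tool, groups and block, 276 of 280 values kept their direction. All rows passed the main filter, so both other filter settings repeated the main fit and could not change a direction. The 4 others lay near 0: DNMT1 in hemizygous cells at 0.00090 with RLE and 0.00086 with DESeq2, UHRF1 in hemizygous cells at -0.020 with limma-voom, and DNMT3B in homozygous cells at 0.0057 with upper-quartile scaling. Counts of called genes over the whole table were 7 in hemizygous and 10 in each other comparison with DESeq2. A replicate block gave 1 called gene in hemizygous against wild-type and 1 in homozygous against hemizygous cells, none a member. Deviations of same-numbered libraries from their genotype mean correlated over genes at 0.74 (wild-type and hemizygous), 0.48 (hemizygous and homozygous) and 0.36 (wild-type and homozygous), but with 2 numbers and no label to say so, the pairing is not established. With the block TET3 had -0.32 in homozygous against wild-type cells (unadjusted p = 0.0360, adjusted p = 0.402 by edgeR) and TET1 -0.31 in homozygous against hemizygous cells (unadjusted p = 0.0211, adjusted p = 0.573). So 1 of 8 members had an unadjusted p under 0.05 in each of these, where none had without the block, against 1942 and 1328 of all genes (435 and 124 without the block). With a library left out, 160 of 192 values kept their direction, and the whole table gave 0 to 2 called genes in hemizygous, 0 to 1 in homozygous, 0 to 2 for both mutants and 0 to 3 for homozygous against hemizygous cells. Leaving out a library of a genotype not in the comparison moved the estimate little, so those agreements in direction were nearly fixed in advance. Ranges that crossed 0 in hemizygous cells were -0.059 to 0.058 for DNMT1, -0.017 to 0.16 for DNMT3A, -0.39 to 0.53 for TET1, -0.38 to 0.13 for TET3, -0.34 to 0.33 for UHRF1 and -0.069 to 0.14 for MBD2. In homozygous cells they were -0.24 to 0.046 for DNMT1, -0.10 to 0.078 for DNMT3B, -0.60 to 0.14 for TET1, -0.52 to 0.030 for TET2 and -0.16 to 0.051 for MBD2. For both mutants they were -0.12 to 0.022 for DNMT1, -0.29 to 0.31 for TET1, -0.26 to 0.092 for UHRF1 and -0.11 to 0.096 for MBD2. For homozygous against hemizygous cells they were -0.23 to 0.050 for DNMT1, -0.74 to 0.20 for TET1, -0.43 to 0.089 for TET3 and -0.53 to 0.15 for UHRF1. Ranges on 1 side of 0 were 0.023 to 0.36 (DNMT3B) and -0.81 to -0.40 (TET2) in hemizygous cells, and 0.051 to 0.23 (DNMT3A), -0.53 to -0.11 (TET3) and -0.38 to -0.021 (UHRF1) in homozygous cells. For both mutants these were 0.017 to 0.20 (DNMT3A), 0.0041 to 0.19 (DNMT3B), -0.56 to -0.29 (TET2) and -0.34 to -0.088 (TET3). Between the mutants they were 0.0066 to 0.12 (DNMT3A), -0.39 to -0.038 (DNMT3B), 0.079 to 0.63 (TET2) and -0.17 to -0.015 (MBD2). The cause was not tested. A genotype with its lone library was assumed to vary like the others. Of the 8 genes TET2 had the fewest counts, 36 to 67 a library, and so the widest counting error.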
